A study of Mus musculus with 8 samples.

Results

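The regions described here are stretches of H3K9me2 and H3K9me3 ChIP-seq signal in the distal 5 Mb of 15 mouse autosomes, all autosomes but 2, 13, 15 and 19. A region was a member when its end lay within 5 Mb of the end of the last region that either mark had on that chromosome. By this rule 67 of the 1382 H3K9me2 regions of these chromosomes were distal, of 1983 in the genome. For H3K9me3 the rule gave 428 of 10774, of 14515 in the genome. The regions came from SV40-immortalized mouse embryonic fibroblasts (imMEFs) of C57bl6 background, made from embryos with HAT1 (HAT1 WT, HAT1+/+) or without it (HAT1 KO, HAT1-/-), with 2 libraries per genotype and mark. All groups shared the immortalization by a viral antigen and a spike-in of immortalized human myoblasts, and embryonic fibroblasts from 2 embryos per genotype are a narrow model of an animal without HAT1. The labels give no treatment, and ChIP counts do not measure the product of the deleted gene. Library totals ran from 4198682 to 8421762 reads, and a median distal region held 14 to 32 reads in a H3K9me2 library and 13 to 21 in a H3K9me3 library, so the precision of single regions was low. The WT 2 library stood apart in both marks at a stretch of chromosome 12, and results that rest on it are given with and without that stretch. The p-values rest only on the spread between these libraries, which edgeR estimates partly from all regions together and not from a single region alone.

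HAT1 acetylates newly synthesised histone H4 before the histone is deposited on replicating DNA. H3K9me2 and H3K9me3 mark silent chromatin; the trimethyl form is the hallmark of constitutive heterochromatin, of silenced repeats and of the chromatin at telomeres, the TTAGGG arrays that cap the chromosomes. Mouse autosomes are telocentric, so that the end at which the coordinates stop is the one far from the centromere, and the sequence just inside it is called subtelomeric.

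Several of the outermost members lay on tandem repeats, which are described first. The assembly held at least 2 TTAGGG units in a row in its last 5 kb of sequence on 14 of the 15 chromosomes, chromosome 4 being the exception. The last region of the chromosome, taken over both marks, lay within 1000 bp of the last assembled base on 8 of the 15 chromosomes. At the ends of chromosomes 3, 10 and 16 it ran 22, 52 and 87 bp past that base into the terminal gap. On chromosome 7, in contrast, the last region stopped 1674275 bp short of the last base.

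In each mark 2 of the members with such repeats were interstitial, one on chromosome 4 at 3.20 Mb from the last region and one in an intron of Dop1b on chromosome 16 at 4.32 Mb. Runs of at least 2 TTAGGG units were found in 7 of 67 distal H3K9me2 regions (10.4%) against 4 of 1315 in the rest of the same chromosomes (0.304%). For H3K9me3 they were found in 9 of 428 (2.1%) against 3 of 10346 (0.0290%). At least 1 TTAGGG, on either strand, was found at closer shares in members and rest, 16.4% and 13.8% for H3K9me2 and 15.2% and 14.1% for H3K9me3.

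Arrays of another kind, at or near the ends of chromosomes 9 and 4, held none of these units. They carried some of the highest counts of all members, so 240 bases from the middle of each are shown, on the forward strand of GRCm38.p6, with the most frequent 12-base word of the region in capitals.

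Chromosome 9 array, chr9:124257028-124257267: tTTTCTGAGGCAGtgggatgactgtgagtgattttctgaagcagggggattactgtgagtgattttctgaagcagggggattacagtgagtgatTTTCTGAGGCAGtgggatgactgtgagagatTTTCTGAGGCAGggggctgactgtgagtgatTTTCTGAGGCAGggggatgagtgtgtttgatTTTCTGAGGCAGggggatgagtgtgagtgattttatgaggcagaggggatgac
Chromosome 4 end array, chr4:156356960-156357199: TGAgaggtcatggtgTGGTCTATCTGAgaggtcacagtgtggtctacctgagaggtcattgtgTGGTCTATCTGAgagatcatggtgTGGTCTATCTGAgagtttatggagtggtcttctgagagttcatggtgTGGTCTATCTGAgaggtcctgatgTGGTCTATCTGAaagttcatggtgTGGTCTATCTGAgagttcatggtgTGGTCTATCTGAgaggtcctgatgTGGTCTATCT

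The chromosome 9 word recurred 31 times over the region, in a repeat of 31 bp, and the chromosome 4 word 22 times, in a repeat of 24 bp. With an array defined as a region in which at least 70% of bases equalled the base one period away, 12 of 67 distal H3K9me2 regions were arrays (17.9%), against 62 of 1315 in the rest (4.71%). For H3K9me3 these were 21 of 428 (4.91%) against 151 of 10346 (1.46%). This definition was set after the sequences had been seen. It did not leave out regions with TTAGGG runs, which were 7 H3K9me2 and 9 H3K9me3 members, against 4 and 3 in the rest. The array counts can therefore overlap the TTAGGG counts above and are not a separate excess. How much of the difference remains without those regions was not tested.

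Distal regions were not spread evenly over the ends. The H3K9me2 density over the 15 distal ends was 0.898 regions per Mb of sequenced bases, against 0.705 in the rest of the chromosomes, a ratio of 1.27 with a 95% Wilson interval of 0.997 to 1.63 from the counts. For H3K9me3 the densities were 5.74 and 5.55 per Mb, a ratio of 1.03 (0.939 to 1.14). These ratios were sums of unlike ends. The distal end was denser than the rest of its own chromosome on 7 of 15 chromosomes for H3K9me2 and on 4 of 15 for H3K9me3.

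For H3K9me2, chromosome 12 had the most members, 22 or 4.4 per Mb against 0.634 in its rest, and chromosomes 5, 8 and 11 had the fewest, 1 each. For H3K9me3, chromosome 17 had the most, 108 members or 21.6 per Mb against 5.00, followed by chromosome 18 with 82 and chromosome 12 with 69. Chromosome 10 was the other end above its rest, with 40 members or 8.00 per Mb against 4.91. Chromosome 11 had the fewest H3K9me3 members, 5 or 1.00 per Mb against 3.31. The H3K9me3 density ratio was 0.825 without chromosome 17 and 0.509 without chromosomes 12, 17 and 18 together. The H3K9me2 ratio was 0.911 without chromosome 12, and so depended on that end for its side of 1. Among 5 Mb windows counted back from the last region, the 15 distal ones had a median of 0.617 H3K9me2 regions per Mb and the other 368 a median of 0.407. The medians for H3K9me3 were 2.41 and 3.6 per Mb, and 5 of the 15 distal windows were above the median of the others.

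**Figure D1:**
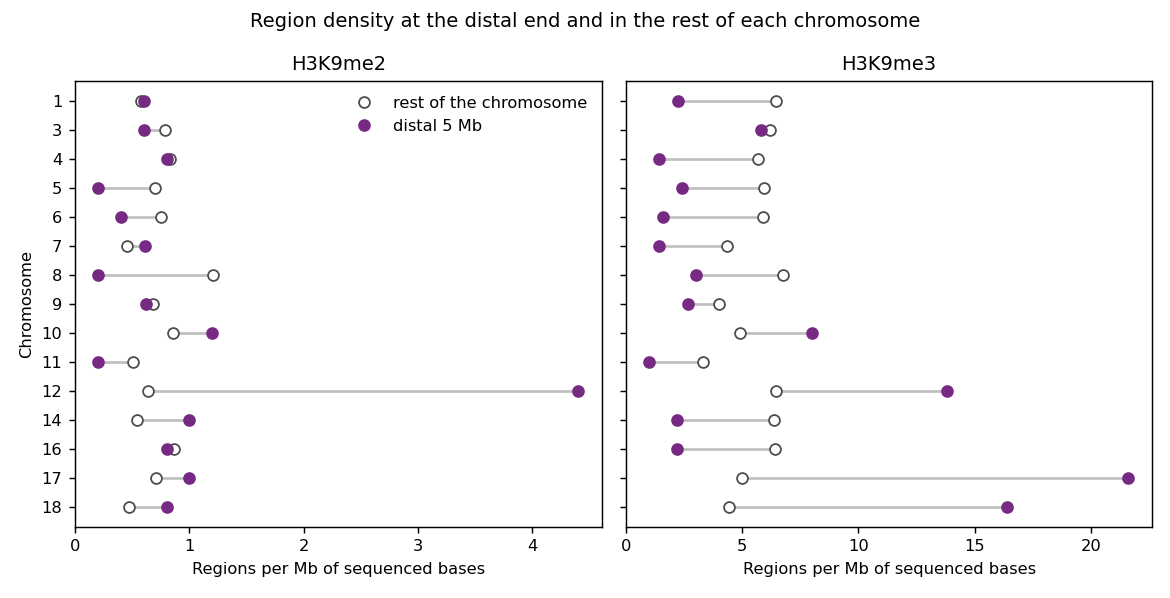
Regions per Mb of sequenced bases in the distal 5 Mb (filled points) and in the rest of the same chromosome (open points), for each of 15 chromosomes, with H3K9me2 on the left and H3K9me3 on the right. Chromosome 12 stands out for H3K9me2 at 4.4 per Mb, and chromosomes 12, 17, 18 and, less so, 10 lie above their own rest for H3K9me3.

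The dense H3K9me3 ends of chromosomes 17 and 18 were poor in genes, with 0.800 and 1.80 protein-coding genes per Mb, against 11.4 over all 15 ends and 8.44 in the rest. Of the chromosome 17 members, 83.3% were intergenic. On chromosome 18, 85.4% were intergenic and 8 of 82 lay in Dok6, which codes for a docking protein of receptor tyrosine kinases. Across the 15 ends, H3K9me3 density went with low GC content (Spearman's rho -0.79) and with few protein-coding genes (rho -0.61). For H3K9me2 the same rho values were -0.38 and -0.14. These 15 points share all libraries and are given as a description. Chromosome 10 did not follow the trend with genes: its end held 33.2 protein-coding genes per Mb, and 20 of its 40 H3K9me3 members lay within 5 kb of olfactory or vomeronasal receptor genes, the chemosensory receptor families. On chromosome 14, 7 of 11 H3K9me3 members lay in Fgf14, which codes for an intracellular fibroblast growth factor.

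Within the window, the density was highest in the outermost Mb. Distance was counted from the last region of either mark, so the rule itself put at least 1 region of each chromosome there. The last Mb held 25 of the 67 H3K9me2 members, 1.69 per Mb, the next 3 bins of 1 Mb held 7, 6 and 6, and the bin from 4 to 5 Mb held 23. For H3K9me3 the 5 bins held 134, 61, 73, 58 and 102 members, and the outermost reached 9.05 per Mb. All 15 chromosomes had a H3K9me3 region in the last Mb and 11 had a H3K9me2 region. The count of 15 followed from how distance was measured: the outermost H3K9me3 region lay at most 71 bp from its starting point. The density ratio of the last Mb to everything else was 2.39 for H3K9me2 and 1.64 for H3K9me3, a window chosen after the data had been seen. Both ratios include the regions from which distance was counted, which raises them, and no value without those regions is given. The fullest single bin of both marks was that of chromosome 12 from 4 to 5 Mb, with 17 H3K9me2 and 57 H3K9me3 members. Without those, its bin held 6 and 45 members over the other ends, where the bin from 3 to 4 Mb held 6 and 58.

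**Figure D2:**
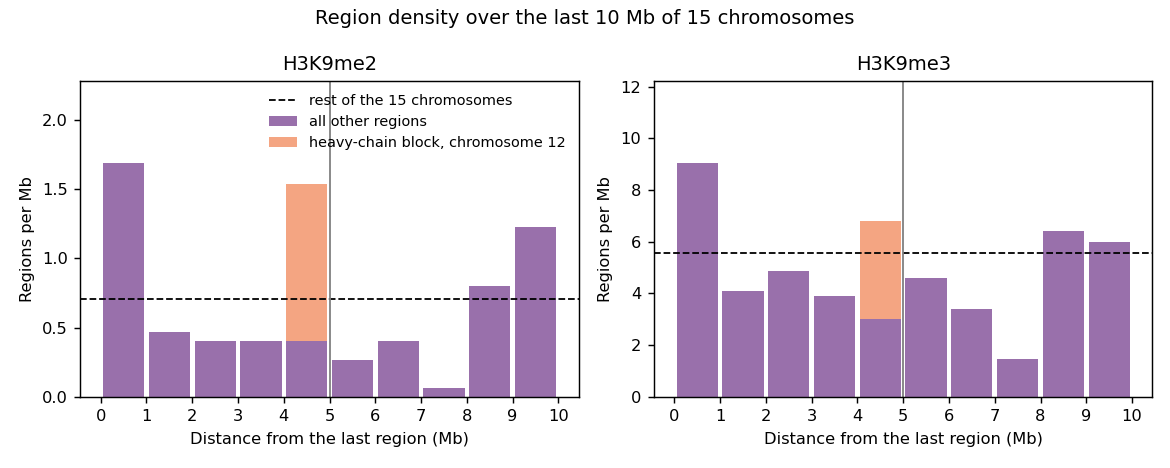
Regions per Mb in 1 Mb bins of distance from the last region, pooled over 15 chromosomes, with the density in the rest of the chromosomes as a dashed line and the 5 Mb limit as a vertical line. The first bin stands at 1.69 and 9.05 per Mb for H3K9me2 and H3K9me3, and the orange part of the fifth bin is the heavy-chain block of chromosome 12. By the rule the first bin holds the regions from which distance is counted.

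At the 5 Mb limit, the innermost H3K9me2 member, on chromosome 12 at 4.96 Mb, held 21, 8, 12 and 84 reads in KO 1, KO 2, WT 1 and WT 2, an order kept for all counts below. This member lies in the heavy-chain block described further on, and WT 2 was its highest library. The first region beyond the limit, on chromosome 17 at 5.10 Mb, held 22, 16, 28 and 11. For H3K9me3 the innermost member, on chromosome 18 at 4.98 Mb, held 14, 24, 15 and 5 reads, and the first region beyond it, on chromosome 17 at 5.00 Mb, held 26, 20, 6 and 6.

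Counts were concentrated in few members. The chromosome 9 array (124256306 to 124257990, 12.4 kb from Gm39469) held 1438, 1024, 657 and 837 H3K9me2 reads, or 260, 189, 78.0 and 129 RPM (reads per megaread of the library total). Each KO library exceeded each WT library, as at 44.2% of the H3K9me2 regions in the rest of the chromosomes. Its log2 fold change was 1.12 ± 0.25 (SE) per library total (edgeR, adjusted p = 0.000656) and 0.49 ± 0.21 with TMM (adjusted p = 0.329). The H3K9me3 region over the same array held 2146, 2405, 1918 and 2285 reads, or 511, 520, 330 and 401 RPM, with a log2 fold change of 0.50 ± 0.30 per library total (edgeR, adjusted p = 0.278). This one array took 19.7% to 31% of all distal H3K9me2 reads in a library and 16% to 17% of the distal H3K9me3 reads. The number of copies of the array in these cells was not measured.

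Next in H3K9me2 came the TTAGGG end of chromosome 12 (22 bp from the last assembled base), with 472, 261, 303 and 262 reads. In RPM these were 85.5, 48.1, 36.0 and 40.3, so that KO 1 stood apart and KO 2 was near both WT libraries. The matching H3K9me3 region held 281, 422, 444 and 348 reads, or 66.9, 91.3, 76.4 and 61.1 RPM, and there the genotypes overlapped. The median 31-base word of both regions had 1835 copies in the assembly, so reads assigned here cannot be told apart from those of other copies.

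A region in an exon of Lars2, the mitochondrial leucyl-tRNA synthetase (chromosome 9, 123461806 to 123462246, untranslated part), was next in H3K9me2 with 327, 309, 234 and 252 reads, and second in H3K9me3 with 705, 737, 1029 and 700. Per library total the H3K9me2 reads were 59.2, 57, 27.8 and 38.8 RPM, both KO above both WT. The H3K9me3 reads were 168, 159, 177 and 123 RPM, with overlap. A region 0.471 kb from Gm27940 on chromosome 1 (195241478 to 195241917) followed in H3K9me3 with 440, 427, 363 and 234 reads, or 105, 92.4, 62.5 and 41.1 RPM. The H3K9me2 region there held 229, 228, 150 and 145. Of the 10 members of highest mean RPM, 9 for H3K9me2 and 10 for H3K9me3 overlapped a region of the other mark.

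**Figure D3:**
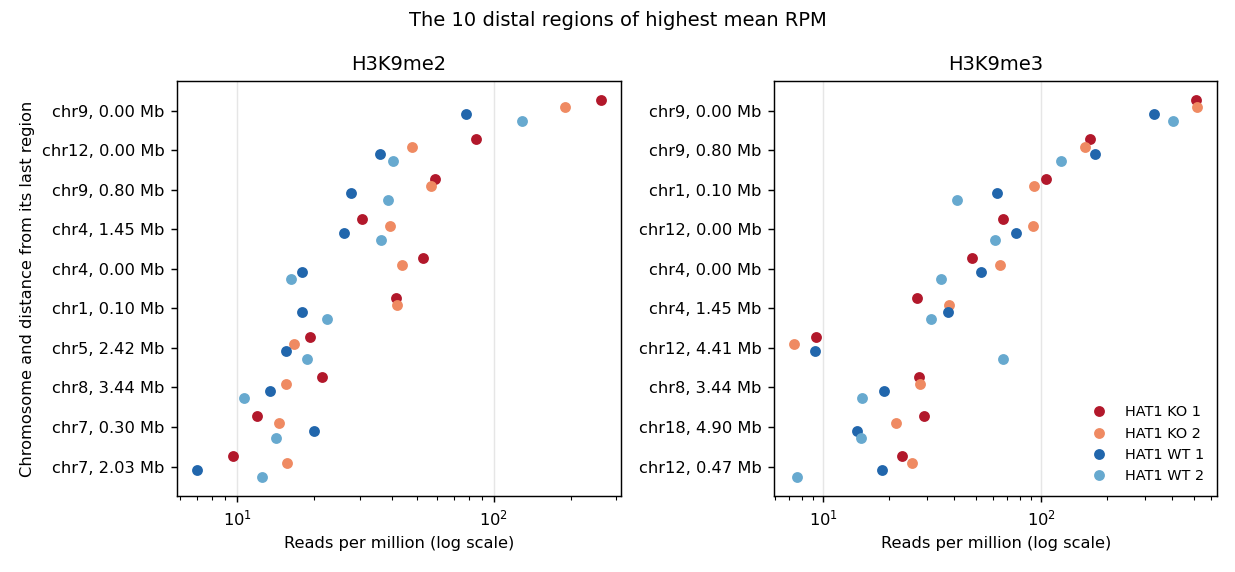
RPM (log axis) in each of the 4 libraries at the 10 distal regions of highest mean RPM of each mark, labelled by chromosome and by distance from the last region, with HAT1 KO libraries in red and HAT1 WT libraries in blue. The chromosome 9 array leads in both marks, KO points lie to the right of WT points at several H3K9me2 members, and the chromosome 12 member at 4.41 Mb has WT 2 far above the other libraries in H3K9me3.

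The outermost region of each mark on each chromosome was compared with the other members, and these last regions were higher than the other members in level. Their median mean RPM was 10.2 against 2.91 over the other 52 H3K9me2 members, and 6.40 against 3.58 over the other 413 H3K9me3 members. They ranged from 1.77 to 164 RPM for H3K9me2 and from 2.97 to 441 RPM for H3K9me3. Per library total 13 of 15 were higher in KO for H3K9me2 and 11 of 15 for H3K9me3, counts that were 7 and 1 with TMM. At the TTAGGG members the median genotype difference per library total on the log2 scale was 0.30 over 7 H3K9me2 regions and 0.19 over 9 H3K9me3 regions, against 0.71 and 0.97 over all regions of the rest of the chromosomes. With TMM these medians were -0.37 and -0.83, against 0.04 and -0.04, and 2 of 7 and 0 of 9 were higher in KO, where 7 of 7 and 6 of 9 were per library total. Over the regions with such repeats outside the ends, 4 for H3K9me2 and 3 for H3K9me3, the medians were 0.89 and 0.33 per library total. In the highest of 4 classes of mean count, where the median TTAGGG member fell, the rest had medians of 0.60 and 0.64 per library total. At the chromosome 16 end, for example, the H3K9me2 reads were 55, 59, 70 and 76, or 9.96, 10.9, 8.31 and 11.7 RPM, with overlap between genotypes.

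The genotype difference over all members depended on scaling and on 1 end. TMM lowered every log2 difference between KO and WT by 0.67 for H3K9me2 and 1.01 for H3K9me3 relative to library totals. Per library total, the median member was higher in KO by 0.39 on the log2 scale for H3K9me2, against 0.71 in the rest, and by 0.67 for H3K9me3, against 0.97 in the rest. With TMM these medians were -0.28 and 0.04 for H3K9me2, and -0.34 and -0.04 for H3K9me3, so the direction of the members turned with the scaling. As this shift is the same for every region, it cannot move the members relative to the rest. Per library total, 48 of 67 H3K9me2 members (71.6%) and 323 of 428 H3K9me3 members (75.5%) were higher in KO, against 77.6% and 87.3% in the rest. Each KO library exceeded each WT library at 38.8% of H3K9me2 members and 45.3% of H3K9me3 members, against a background of 44.2% and 57.1%. Without the heavy-chain block these shares were 52% (26 of 50), above the background, and 48.8% (181 of 371), still below it. The reverse was seen at 1.49% and 4.44% of members, against 4.18% and 2.69%.

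Library by library, the H3K9me2 members lay 0.14 above the rest in KO 1, 0.34 below it in KO 2, 0.34 below it in WT 1 and 1.04 above it in WT 2, as differences of median log2 RPM. The mean was -0.10 ± 0.34 (SD, n = 2) in KO and 0.35 ± 0.98 in WT, and the exact permutation test gave p = 1. WT 2 was thus the library that stood apart, and without it the contrast of KO and WT turned from -0.45 to 0.24. For H3K9me3 the values were 0.04, 0.00, 0.11 and 0.47, with means of 0.02 ± 0.03 in KO and 0.29 ± 0.26 in WT. The contrast was -0.27 (exact permutation p = 0.33, the smallest that 2 libraries against 2 allow), and it was -0.09 without WT 2 and -0.45 without WT 1. As a share of reads in the regions of the 15 chromosomes, distal H3K9me2 members took 1.66% (95% Wilson interval 1.61 to 1.71), 1.47% (1.42 to 1.51), 1.60% (1.55 to 1.65) and 1.71% (1.66 to 1.76). The H3K9me3 shares were 2.50% (2.46 to 2.55), 2.50% (2.46 to 2.54), 2.76% (2.71 to 2.81) and 3.05% (3.0 to 3.10), lower in both KO libraries than in both WT libraries (exact permutation p = 0.33). Without the heavy-chain block the H3K9me3 shares were 2.32%, 2.31%, 2.59% and 2.35%, so that WT 2 came close to the KO libraries, and the H3K9me2 shares were 1.59%, 1.4%, 1.54% and 1.31%.

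The end that weighed most was chromosome 12 between 4.02 Mb and 5 Mb from its last region. This is the telomere-side part of the immunoglobulin heavy-chain locus, where 54 annotated Igh genes lie, nearly all of them variable segments that B cells join to make antibody genes. The stretch, called the heavy-chain block here and chosen after values had been seen, held 17 of the 67 H3K9me2 and 57 of the 428 H3K9me3 members. Median reads per H3K9me2 member were 10, 10 and 7 in KO 1, KO 2 and WT 1 but 47 in WT 2. For H3K9me3 they were 16, 17, 11 and 38.

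WT 2 was the highest of the 4 libraries at 17 of 17 H3K9me2 block members, against 4.00% of the other distal members and 20.8% of regions in the rest. For H3K9me3 it was highest at 41 of 57 (71.9%), against 11.6% and 9.97%. The median log2 difference of WT 2 over WT 1 was 3.08 for H3K9me2 and 1.94 for H3K9me3 in the block, and -0.03 and 0.14 at the other members. The block was not raised at each member: 4 H3K9me3 members held 0 reads in WT 2, among them one with 26, 17 and 15 reads in the other libraries and one with 18, 39 and 20. A count of 0 in WT 2 allows up to 0.527 RPM. Block members took 23.1% of the distal H3K9me2 reads and 23.1% of the distal H3K9me3 reads in WT 2, and 3.50% to 7.53% in the other 6 libraries. The pattern did not end at the window: at 24 H3K9me3 regions near Igh genes further in, the median difference of WT 2 over WT 1 was 1.55. On the remainder of chromosome 12 outside the window it was 0.37 for H3K9me2 and 0.22 for H3K9me3. What sets WT 2 apart here was not tested.

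**Figure D4:**
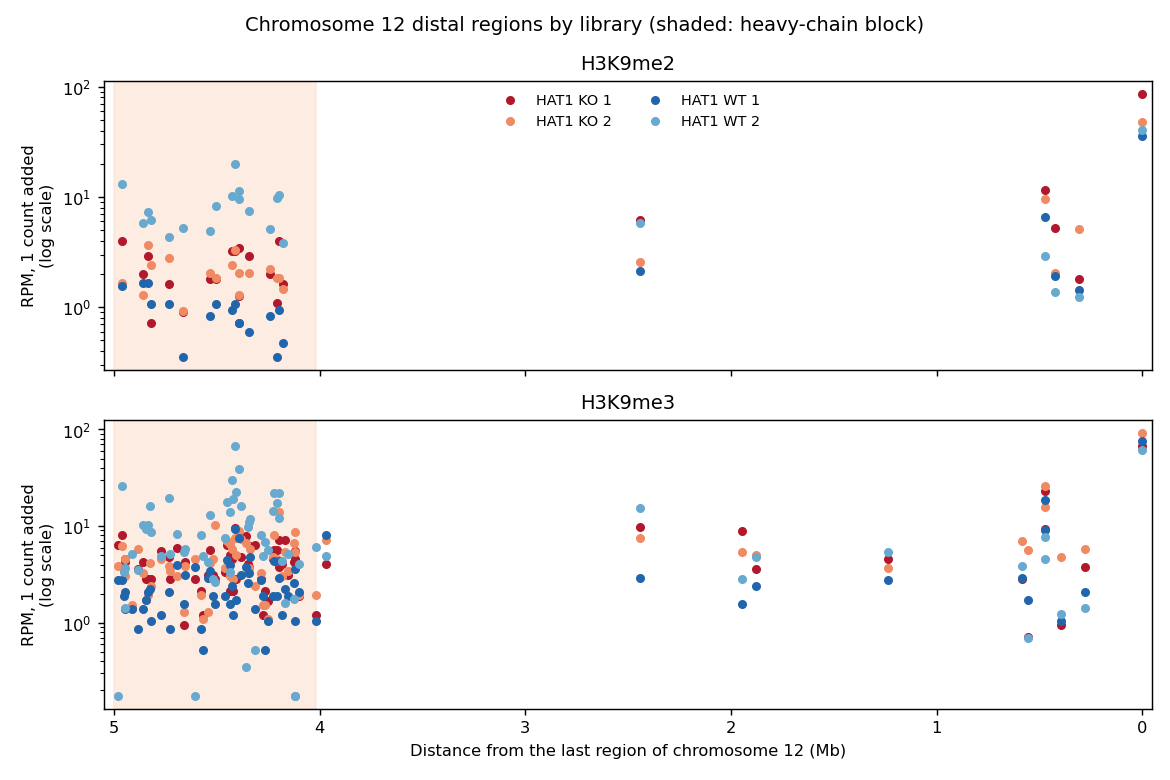
RPM with 1 count added (log axis) in each library at the distal regions of chromosome 12, by distance from its last region, with the telomere on the right and the heavy-chain block shaded. In the shaded block WT 2 (light blue) lies above the other 3 libraries at all 17 H3K9me2 members and at 41 of 57 H3K9me3 members, while toward the telomere the libraries mix.

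Without the block, the 50 other H3K9me2 members had a median genotype difference of 0.81 per library total, above the 0.71 of the rest, and 45 of 50 were higher in KO. With TMM their median was 0.14 and 29 of 50 were higher, so the H3K9me2 median turned with the scaling only with the block included. The contrast of distal and rest turned from -0.45 to 0.11 (exact permutation p = 1). The 371 other H3K9me3 members had a median of 0.76, still below the 0.97 of the rest, and a contrast of -0.18 (exact permutation p = 0.33). In the block itself the medians were -0.21 for H3K9me2 and -0.26 for H3K9me3. The lower H3K9me3 difference was also found end by end: the distal median was below that of the rest on 13 of 15 chromosomes, the exceptions being 3 and 18, and the ends share the same 4 libraries. It differed with the count: in 4 classes of regions from lowest to highest mean count, the H3K9me3 distal median minus that of the rest was -0.60, -0.12, -0.03 and -0.34 with the block included. Without the block the distal medians of these classes were 0.87, 1.07, 0.84 and 0.49, against 1.39, 1.11, 0.95 and 0.64 in the rest. For H3K9me2 it was below on 5 of 15, which held 1 to 4 members each except chromosome 12 with 22. The next 5 Mb inward had lower H3K9me3 differences than the distal 5 Mb, with bin medians of 0.36 to 0.59, and against that stretch the contrast was 0.21.

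**Figure D5:**
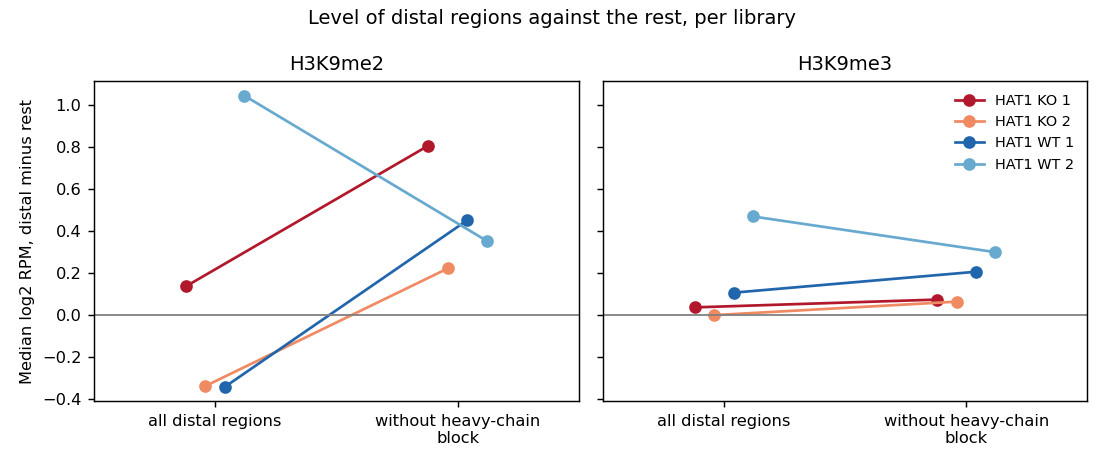
Median log2 RPM of distal regions minus that of the rest of the 15 chromosomes in each of the 4 libraries of a mark, with all distal regions and without the heavy-chain block. For H3K9me2 WT 2 moves from 1.04 to 0.35 and the genotypes then interleave, and for H3K9me3 both KO libraries stay below both WT libraries.

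Few members were called changed. With TMM most calls lay in the block. Per library total 1 of 6 H3K9me2 calls and 2 of 3 H3K9me3 calls did. With TMM, edgeR called 1 of 67 H3K9me2 members lower in KO and 0 higher, against a background of 1.71% lower and 0.202% higher over all 1983 regions. At an unadjusted p under 0.05, for which no background is given, 12 members were lower and 2 higher. Of these 12, 10 lay in the block. DESeq2 gave an adjusted p to only 9 of the 67 members and called 0 of them, against 9.77% of the 215 regions with one. For H3K9me3, 12 of 428 members were called lower and 1 higher, against 0.971% and 0.0276% over all 14515 regions, and 11 of the 12 were in the block. DESeq2 gave an adjusted p to 57 of the 428 members and called 2, both lower, against 5.43% of the 1289 regions with one: the member at Ighv1-66 and one at Kcnq1, a potassium channel gene on chromosome 7, which held 36, 55, 93 and 90 reads and had an adjusted p of 0.0556 in edgeR with TMM. Per library total, 5 H3K9me2 members were called higher and 1 lower, against 5.50% and 0.252%, and 1 and 2 H3K9me3 members, against 0.785% and 0.103%. The members called lower were in the block and those called higher were outside it. Without KO 1 or without KO 2 the TMM fit called 0 members of either mark, against 0% of all H3K9me2 regions in both fits and 0.0207% and 0.0344% of all H3K9me3 regions. Without WT 1 it called 10 of 67 and 35 of 428 members, against 4.89% and 3.1% of all regions, and without WT 2 it called 1 and 8, against 2.92% and 1.32%. In these fits 1 genotype has a single library, which is assumed to vary like the 2 libraries of the other genotype.

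The H3K9me2 call and the strongest H3K9me3 call were at the same place, Gm9245, a processed pseudogene inside the heavy-chain locus. The H3K9me2 region there (115617123 to 115617539) held 17, 17, 8 and 128 reads, and the H3K9me3 region (115616983 to 115617796) held 39, 34, 53 and 381. In RPM the H3K9me3 values were 9.29, 7.36, 9.12 and 66.9, so that WT 1 lay among the KO libraries and WT 2 alone was high. The log2 fold change with TMM was -2.26 ± 0.51 for H3K9me2 (edgeR, adjusted p = 0.00297) and -3.15 ± 0.45 for H3K9me3 (adjusted p = 1.12e-08). At all 11 H3K9me3 members called in the block WT 2 was the highest library, and WT 1 lay below at least 1 KO library at each but the one at Ighv1-66. The region 2.28 kb from Ighv1-67 held 8, 12, 6 and 108 reads (log2 fold change -3.09 ± 0.59), and the one at Ighv1-66, with each WT library above each KO library per library total, held 8, 13, 22 and 79 (-2.87 ± 0.59). A stretch of Gm9245 is shown because both marks were called there, in lower case since no motif was sought.

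Gm9245, chr12:115617330-115617449: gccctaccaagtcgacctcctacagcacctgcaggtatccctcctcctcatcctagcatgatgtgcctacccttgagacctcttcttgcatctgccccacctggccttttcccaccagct

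Outside the block, 2 H3K9me3 members were called. The chromosome 4 interstitial TTAGGG repeat held 52, 70, 177 and 63 reads, or 12.4, 15.1, 30.5 and 11.1 RPM, and its log2 fold change with TMM was -1.64 ± 0.45 (edgeR, adjusted p = 0.0355). Here WT 1 alone was high, and per library total the adjusted p was 0.344. The H3K9me2 region at this repeat held 56, 22, 63 and 33 reads and was not called. The single H3K9me3 member called higher in KO lay in an intron of Rps6kc1, which codes for a ribosomal S6 kinase family member (chromosome 1, 190902699 to 190903018). It held 43, 28, 3 and 0 reads, 71 in KO and 3 in WT, a ratio per library total of 30.9 with an exact 95% interval of 10.1 to 153 for counting error (edgeR with TMM, adjusted p = 0.00921). At the H3K9me2 region that overlaps it, KO 1, KO 2 and WT 1 were at 5.07, 9.77 and 6.06 RPM and WT 2 at 0.308, so the genotypes overlapped. This member was again a tandem array, of 28 bp, shown with its most frequent 12-base word in capitals.

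Rps6kc1 intron, chr1:190902799-190902918: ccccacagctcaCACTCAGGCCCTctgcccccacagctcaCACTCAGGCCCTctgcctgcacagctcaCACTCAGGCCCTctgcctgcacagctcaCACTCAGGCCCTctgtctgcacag

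The H3K9me2 members called higher per library total were 5, all among those of highest level: the chromosome 9 array, the Lars2 region, the chromosome 12 end, the region near Gm27940 and the chromosome 4 end array. The last had the largest change, with 292, 238, 150 and 105 reads, or 52.9, 43.9, 17.8 and 16.2 RPM. Its log2 fold change was 1.51 ± 0.28 per library total (edgeR, adjusted p = 3.2e-05) and 0.83 ± 0.26 with TMM (adjusted p = 0.0707). The H3K9me3 region at this array held 203, 299, 309 and 198 reads, or 48.3, 64.7, 53.2 and 34.8 RPM, with a log2 fold change of 0.36 ± 0.36 per library total and overlap between genotypes. The nearest annotated gene was Vmn2r125, a vomeronasal receptor pseudogene 0.811 kb away.

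Over the 190 H3K9me3 members of the dense ends of chromosomes 17 and 18 the median genotype difference was 0.84 per library total and 86.3% were higher in KO. Over the 169 members of the ends other than 12, 17 and 18 these values were 0.57 and 75.7%. With TMM the medians were -0.17 and -0.44, and 40.5% and 33.7% were higher in KO, so the majority turned in both sets. Both KO libraries were below both WT libraries at 0.526% of the former and 8.28% of the latter, against 2.69% in the rest. In edgeR with TMM, 0 of the former and 2 of the latter were called, those on chromosomes 1 and 4 above. Over all 14515 regions 0.971% were called lower and 0.0276% higher. At an unadjusted p under 0.05, for which no background is given, 8 of the former were lower and 0 higher with TMM. Per library total 0 were lower and 33 higher. Of both sets DESeq2 called only the Kcnq1 member.

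Other features set the members off from the rest less clearly. The median GC content was 49.5% for H3K9me2 members and 48.9% in the rest, and 49.6% and 49.9% for H3K9me3. Soft-masked sequence, which marks annotated repeats, made up a median of 42.6% of a H3K9me2 member against 56.5% in the rest, and 9.28% in the heavy-chain block. For H3K9me3 the medians were 71.1% and 70.3%. Exons were hit by 17.9% of H3K9me2 members and 7.53% of the rest, and by 10.3% and 5.66% for H3K9me3, and without the block 12% and 6.74% of members did. Regions with an overlap in the other mark made up 56.7% of H3K9me2 members against 39.5%, and 8.64% of H3K9me3 members against 4.98%. Regions that join at least 2 summits made up 32.8% against 20.2% and 15.9% against 13%.

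By gene class, olfactory and vomeronasal receptor genes lay within 5 kb of 3 H3K9me2 members (4.48%, against 2.59% in the rest) and of 27 H3K9me3 members (6.31% against 3.02%). Zinc-finger genes, whose clusters are classical H3K9me3 targets, lay near 0 of 67 and 2 of 428 members (0.467%, against 1.30% in the rest). Heavy-chain genes lay near 11 and 36 members, all in the block. Defensin, Speer, Skint, Pramel and protocadherin genes lay near 0 members of either mark. These classes were rare in the rest too: of its H3K9me3 regions with at least 2 summits, 0.37% lay near Skint genes and fewer near each other class.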

How the data were processed

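H3K9me2 and H3K9me3 ChIP-seq libraries, 2 per genotype and mark, were grouped by their titles. Per the labels and the published methods, paired-end reads were mapped by the authors to mm10 with BWA 0.7.12, and they called peaks with MACS2 2.1.0 and named DiffBind for the comparison. The deposited read counts per region are raw. Library totals were taken from the deposited RPM values, each of which is the count plus 1 divided by that total. The deposited ratio of enrichment and the authors' own log2 fold changes, p-values and q-values were not used. Whether the totals include the human spike-in is not given in the sources used here. Reads that map to several places, as in tandem repeats, may be placed at 1 copy or dropped, and the filter is not given in the sources used here.

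Exact repeat rows were removed, 62 of 2045 for H3K9me2 and 314 of 14829 for H3K9me3. Region coordinates are as deposited and starts were read as counted from 0. Printed sequences carry their own coordinates, counted from 1. The assembly GRCm38.p6, which is mm10, gave sequence, soft-masking and gaps, and GENCODE M21 gave genes. Counts were fitted over all regions of a mark with edgeR 4.0.16 (glmQLFit and glmQLFTest, R 4.3.3), with TMM factors as the main scaling and library totals alone beside it, no filter, and a Benjamini-Hochberg FDR under 0.05. Levels were log2 RPM with 1 count added. Library medians were compared by exact two-sided permutation tests, for which 2 libraries against 2 cannot go below p = 0.33. Wilson intervals are at 95% and cover counting error only. The fit was tested on simulated counts, in which it recovered 26 of 200 H3K9me2 and 0 of 200 H3K9me3 regions changed 4-fold, and 199 and 196 changed 16-fold. Other steps used Python 3.11.15 and scipy 1.17.1.

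The distal ends, lists and tests were chosen with earlier results of these data known. The regions named are, per mark, at most 3 called in each direction under either scaling, the 3 of highest mean RPM, the last region of each chromosome, and those next to the 5 Mb limit. The heavy-chain block, the tandem array count and other regions named from the plots were chosen after values were seen. Chromosomes 2, 13, 15 and 19, X and Y were not analysed here, and some sequences and 1 gene are not reported here. Replicate numbers were not taken as pairs, since nothing in the labels ties the same number to a shared embryo or day, and the correlation of same-numbered deviations was 0.0303 for H3K9me2 and 0.00402 for H3K9me3.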

Additional observations from a re-analysis of the deposited data

How the results depend on the processing

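The number of called H3K9me2 members was 1 of 67 with TMM, 6 with library totals alone, 0 of the 9 that DESeq2 gave an adjusted p, 2 with filterByExpr (2.39% of all regions in that fit) and 5 at an FDR under 0.1 (2.67%). It ranged from 0 to 10 when 1 replicate was left out. With library totals alone it was 0 without KO 1 or KO 2 (0%), 13 without WT 1 (8.93%) and 7 without WT 2 (10.6%). For H3K9me3 it was 13 of 428 with TMM, 3 with library totals alone, 2 of 57 with DESeq2 and 24 at an FDR under 0.1 (1.57%), and it ranged from 0 to 35 with 1 replicate left out. With library totals alone it was 0 without KO 1 (0%), 1 without KO 2 (0.0758%), 18 without WT 1 (2.09%) and 5 without WT 2 (1.19%). With the replicate block it was 0 for H3K9me2 (1.87%) and 5 for H3K9me3 (0.572%), and the block reversed no other result. Nothing in the labels ties the replicate numbers to a shared origin, and why calls were lost there was not tested.

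The median genotype difference turned from 0.39 to -0.28 with TMM and to -0.29 with counts in regions as library size for H3K9me2, and from 0.67 to -0.34 with TMM for H3K9me3. It ran from 0.32 to 1.04 and from 0.57 to 0.80 with 1 replicate left out. The H3K9me2 contrast of distal and rest, -0.45, ran from -1.14 to 0.24 with 1 replicate left out, turned to 0.061 without chromosome 12 and was 0.11 without the heavy-chain block, an alternative chosen after seeing the data. The H3K9me3 contrast, -0.27, ran from -0.45 to -0.09 and turned only against the next 5 Mb, to 0.21. The difference in the H3K9me2 share of counts, -0.09 percentage points, ran from -0.19 to 0.0073 with 1 replicate left out, and the H3K9me3 difference, -0.40, from -0.55 to -0.26.

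The H3K9me2 density ratio, 1.27, was 1.63 against the next 5 Mb and 0.911 without chromosome 12, and 2.39 over the last 1 Mb, a window added after seeing the data. The H3K9me3 ratio, 1.03, was 1.18 over the last 2 Mb, 0.903 over the last 10 Mb, 1.64 over the last 1 Mb, 1.15 with regions of mean count at or above the 25th percentile, 1.31 against the next 5 Mb and 0.825 without chromosome 17. The distal windows all start at a region by the rule, which raises their densities, and most so over the last 1 Mb. Where no value above shows the cause, the cause was not tested.

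With 2 libraries per genotype and a median of 13 to 32 reads per member, most 4-fold changes were missed on simulated counts, although members of high count were called at smaller changes, and no permutation test could go below p = 0.33. Reads in telomeric and other arrays may stem from copies elsewhere.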
